A study of Mus musculus with 9 samples.

Results

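The proteasome and immunoproteasome genes of mouse macrophages are described here, chosen by name: every listed gene whose mouse symbol is Psm, a letter from a to g and a number, pseudogenes left out. Of 12204 listed genes, 47 are such members. They fall by textbook role into 5 inducible genes (Psmb8, Psmb9, Psmb10, Psme1 and Psme2), 14 constitutive core subunits (Psma1 to Psma7 and Psmb1 to Psmb7), 17 base and lid subunits of the regulatory particle, 7 assembly chaperones, 3 other activators and inhibitors (Psme3, Psme4 and Psmf1), and Psme2b, a near copy of Psme2. Psma8 and Psmb11 were not analysed here.

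The macrophages came from bone marrow of C57/Bl6J mice, differentiated for 6 days with 20% L929 cell supernatant, a source of macrophage colony-stimulating factor. One group received 50 µM BMS303141, an inhibitor of ATP-citrate lyase, for 1 h and then 10 ng/ml lipopolysaccharide (LPS, the bacterial ligand of Toll-like receptor 4) for 4 h. A second group received the same LPS without the inhibitor, and the remaining group was left untreated. Each group had 3 libraries of QuantSeq 3′ mRNA sequencing. No group with BMS303141 alone was analysed here, so the inhibitor's effect is seen only on top of LPS. Whether replicates are independent cultures or animals is not given in the labels. The p-values therefore speak only of variation among these 9 libraries, part of which may be technical.

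The proteasome degrades proteins tagged with ubiquitin inside a barrel of stacked alpha and beta rings, and the beta subunits Psmb5, Psmb6 and Psmb7 carry its constitutive cutting sites. Interferon-gamma and other inflammatory signals induce Psmb8, Psmb9 and Psmb10, which take the places of Psmb5, Psmb6 and Psmb7 in newly built particles. Psme1 and Psme2 form the PA28 cap that opens the barrel, and the resulting immunoproteasome supplies peptides for presentation on MHC class I molecules.

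Values are log2 CPM (read counts scaled to a common library total, on a log2 scale) as the authors normalised them, and all 47 members passed the filter on low values. Estimated depth was 3.47 to 3.69 M (mega) reads in BMS303141 plus LPS libraries, 1.80 to 3.20 M reads in LPS libraries and 3.29 to 4.91 M reads in untreated libraries. The smallest library was LPS library 1, where the lowest member, Psmg1, rested on about 4.19 reads. All 8 macrophage markers were detected, with a summed level of 4746 to 4830 CPM in BMS303141 plus LPS, 3987 to 4866 CPM in LPS and 8007 to 8683 CPM in untreated libraries. In LPS against untreated 6 of them were called lower, as were 25.4% of all tested genes. Cd14 was called higher, by 1.80, and Adgre1 was not called (0.07). Of 8 neutrophil markers only S100a8 and S100a9 had values, summing to 172 to 264 CPM in BMS303141 plus LPS, 33.9 to 60.9 CPM in LPS and 7.81 to 29.6 CPM in untreated libraries. Of 8 mitochondrial transcripts read as signs of RNA quality, mt-Nd1, mt-Nd2, mt-Nd4 and mt-Nd5 were called lower in LPS against untreated, by -0.63 to -0.37. In that comparison 25.4% of all tested genes were called lower. The 8 summed to 58817 to 59219 CPM in BMS303141 plus LPS, 54204 to 58828 CPM in LPS and 59141 to 60183 CPM in untreated libraries. The values look quantile-normalised, which gives genes of equal rank the same value in every library, and mt-Rnr2 differed by 0.0 in each comparison. These sums are therefore a weak sign of RNA quality. The part of the marker and mitochondrial shifts in the results was not tested. In such bulk RNA, fewer cells of a type and less RNA per cell cannot be told apart.

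LPS library 1 and untreated library 3 stood apart from the other libraries of their groups. In LPS library 1, 15 members lay more than 0.5 log2 units under the mean of LPS libraries 2 and 3, and 4 lay more than 0.5 over it. That is 40.4% of the members, against 37.4% of all tested genes, of which 2208 lay under and 2355 over. The median deviation of LPS library 1 was -0.16 over the members and 0.06 over all tested genes. In untreated library 3, 6 members lay more than 0.5 under and 3 more than 0.5 over the mean of untreated libraries 1 and 2. That share is 19.1% of the members, against 26.7% of all tested genes, of which 1658 lay under and 1594 over. Across the 47 members the 2 sets of deviations had a Pearson r of 0.50 and a Spearman rho of 0.45, and across all 12196 tested genes an r of 0.29; genes of a library share its depth and handling, so these are descriptions. The immunoproteasome genes Psme2, Psmb8 and Psmb9 were among the lowest in both libraries. For some of the results below, values without 1 or both of these libraries are also given; leaving out both together is an alternative chosen after the data were seen.

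**Figure D1:**
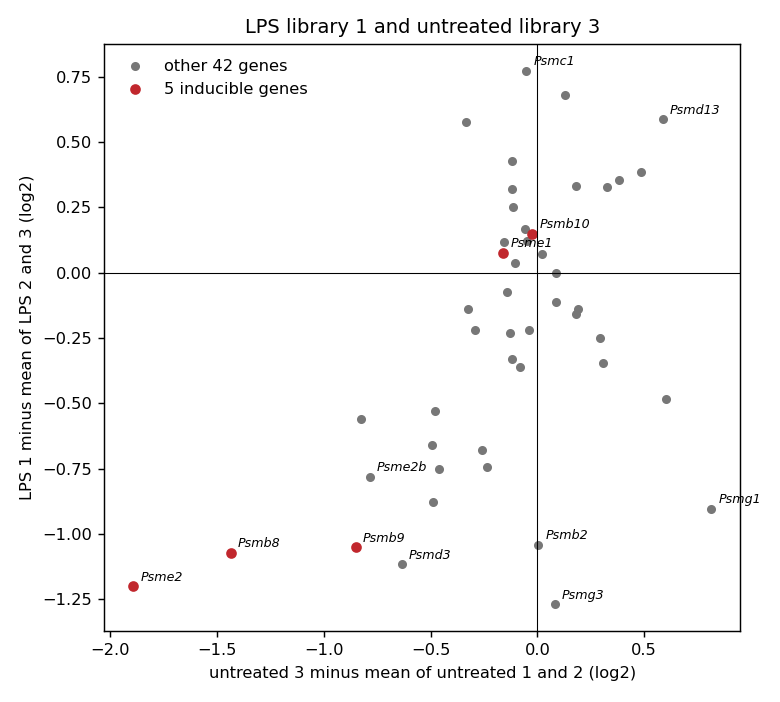
Deviation of each of the 47 genes in untreated library 3 from the mean of untreated libraries 1 and 2 (x axis, log2) and in LPS library 1 from the mean of LPS libraries 2 and 3 (y axis, log2). Psme2, Psmb8 and Psmb9 sit at the lower left, at -1.89, -1.44 and -0.85 on the x axis, while Psmb10 and Psme1 sit near 0 on both axes.

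The first comparison asks how the proteasome genes behaved after LPS. Psme2, Psmb10 and Psme1 rose among the 5 inducible genes, while Psmb9 averaged nearly the same level with and without LPS. The largest rise among the constitutive core subunits was that of Psma6, 5.22-fold, and the assembly chaperone Psmd10 rose 2.80-fold. In limma's test with Benjamini-Hochberg adjustment over 12196 genes (called at an adjusted p under 0.05), 22 of the 47 members rose and 3 fell. Over all tested genes 21.5% rose and 25.4% fell. The median difference of LPS minus untreated was 0.37 over the members and -0.06 over all tested genes. Without overlap between the groups, 19 members lay higher and 3 lower, against 23.7% and 28.9% of all tested genes. With each library centred on ribosomal protein genes, 22 members rose and 0 fell, against 21.3% and 19.7% of all tested genes under the same centring.

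Psmb10, the inducible subunit with trypsin-like activity, had 7.16, 6.98 and 7.03 log2 CPM in LPS libraries 1, 2 and 3, against 5.73, 6.10 and 5.89 in untreated libraries 1, 2 and 3. Every LPS library lay above every untreated library. The difference was 1.15 (SE 0.12, adjusted p = 4.96e-06). Psme1, the alpha chain of PA28, had 6.19, 6.00 and 6.23 log2 CPM in LPS libraries, against 5.54, 5.66 and 5.44 in untreated libraries. The groups did not overlap, and the difference of 0.60 (SE 0.12) passed with an adjusted p of 0.00142.

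Psme2, the beta chain of PA28, had 4.07, 5.48 and 5.07 log2 CPM in LPS libraries, against 2.68, 2.80 and 0.85 in untreated libraries. LPS library 1 and untreated library 3 were the lowest of their groups, yet the groups did not overlap. In untreated library 3 Psme2 was the lowest of all members and rested on about 5.28 reads. The difference was 2.76 (SE 0.45, adjusted p = 0.000208), and it ranged over 2.13 to 3.16 as each library was left out in turn. Psme2b had 7.04, 7.88 and 7.76 log2 CPM in LPS libraries, against 6.13, 5.82 and 5.19 in untreated libraries, a difference of 1.84 (SE 0.23, adjusted p = 2.44e-05).

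Psme2 and Psme2b cannot be cleanly separated by 3′ reads. In the last 500 bases of the Psme2b transcript, 249 of 451 distinct 50-base stretches (55.2%) also occur at the end of Psme2. The 2 genes were therefore also summed, an alternative chosen after the data were seen. The sum stood at 7.21, 8.13 and 7.96 log2 CPM in LPS libraries, against 6.25, 5.99 and 5.26 in untreated libraries. It rose by 1.93 (SE 0.25, adjusted p = 2.66e-05).

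Psmb8, the inducible subunit with chymotrypsin-like activity, had 4.56, 5.67 and 5.58 log2 CPM in LPS libraries, against 5.03, 4.96 and 3.56 in untreated libraries. LPS library 1 lay below untreated libraries 1 and 2, so the groups overlapped. The difference of 0.76 (SE 0.36) missed the threshold, with an adjusted p of 0.105. Without LPS library 1 it was 1.11 with an adjusted p of 0.0125, and without both LPS library 1 and untreated library 3 it was 0.63 with an adjusted p of 0.00479. Psmb8 also passed with all libraries under the centring on ribosomal protein genes (adjusted p = 0.0384) and with weights per library (adjusted p = 0.0114).

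Psmb9, the inducible subunit that replaces the caspase-like Psmb6, had 3.51, 4.67 and 4.46 log2 CPM in LPS libraries, against 4.69, 4.13 and 3.56 in untreated libraries. The groups overlapped along their whole range. The difference was 0.09, with a 95% interval of -0.66 to 0.83 and an adjusted p of 0.859. Without LPS library 1 and untreated library 3 it was 0.16 (adjusted p = 0.664). The interval leaves room for a change of either sign, so the data do not show that Psmb9 was unaffected.

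**Figure D2:**
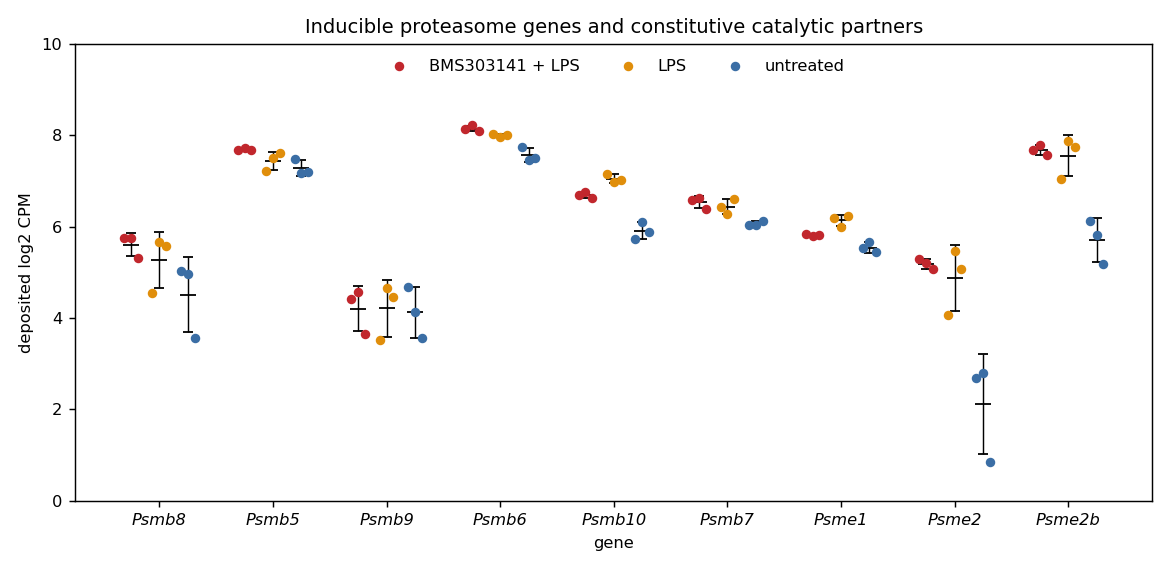
Log2 CPM (y axis) of the inducible genes, the constitutive beta subunits they replace, and Psme2b (x axis). Coloured points are single libraries of BMS303141 plus LPS, LPS and untreated macrophages; the black bar and whiskers give the mean and SD of 3 libraries. The 3 untreated points of Psmb10 lie under all treated points, whereas those of Psmb9 lie among them.

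Psmb9 shares its start region with Tap1, the gene of a peptide transporter of MHC class I loading. On GRCm38 chromosome 17, Psmb9 runs from 34181987 to 34187764 on the minus strand and Tap1 from 34187553 to 34197225 on the plus strand, so their 5′ ends overlap. Psmb8 follows at 34197721 to 34201454 on the plus strand. Tap1 had 7.30, 7.21 and 7.25 log2 CPM in LPS libraries, against 6.12, 6.15 and 6.30 in untreated libraries, and rose by 1.06 (SE 0.11, adjusted p = 3.11e-06). Of these 3 neighbours, Tap1 passed the test, whereas Psmb8 and Psmb9 did not.

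Of the constitutive partners, Psmb7 and Psmb6 rose after LPS and Psmb5 was not called. Psmb7, replaced by Psmb10, had 6.44, 6.27 and 6.61 log2 CPM in LPS libraries, against 6.04, 6.04 and 6.12 in untreated libraries, and rose by 0.37 (SE 0.12, adjusted p = 0.0262). That call was lost without LPS library 3 (0.29, adjusted p = 0.122), without untreated library 1 (adjusted p = 0.0625) and without untreated library 2 (adjusted p = 0.0747). Psmb6 had 8.02, 7.96 and 8.01 log2 CPM in LPS libraries, against 7.74, 7.46 and 7.50 in untreated libraries, and rose by 0.43 (SE 0.10, adjusted p = 0.00423). Psmb5, replaced by Psmb8, had 7.22, 7.49 and 7.62 log2 CPM in LPS libraries, against 7.47, 7.17 and 7.20 in untreated libraries, with overlapping groups and a difference of 0.16 (adjusted p = 0.306).

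Setting each inducible subunit against the subunit it replaces, inside the same library, removes shifts that touch both genes alike. The difference of Psmb10 minus Psmb7 was 0.72, 0.71 and 0.43 in LPS libraries, against -0.31, 0.07 and -0.23 in untreated libraries. All LPS libraries lay above all untreated libraries, with a change of 0.78 (SE 0.15). The exact two-sided permutation p was 0.1, the smallest that 3 against 3 libraries can give, and 0.3 after adjustment over 9 such comparisons. Psmb8 minus Psmb5 changed by 0.59 (exact p = 0.4) and Psmb9 minus Psmb6 by -0.34 (exact p = 0.6), both with overlapping groups. Without untreated library 3 these changes were 0.15 and -0.59, and without LPS library 1 they were 0.84 and 0.02. Only the shift of Psmb10 against its partner kept the groups apart among the 3 pairs after LPS.

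**Figure D3:**
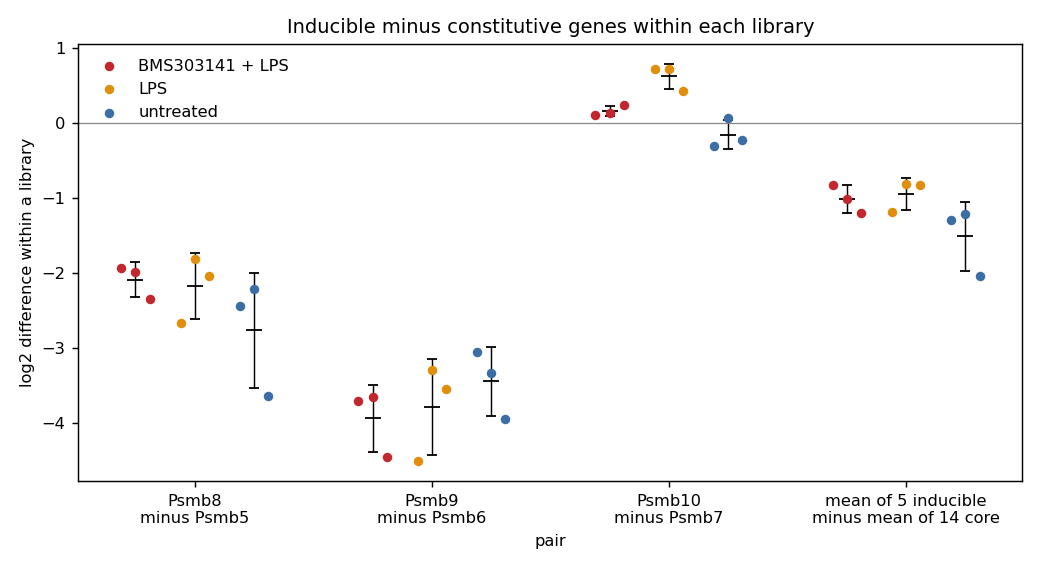
Log2 CPM of an inducible gene minus that of its constitutive partner within each library (y axis), for 3 pairs and for the mean of the 5 inducible minus the mean of the 14 core genes (x axis). Points are libraries, bars and whiskers the mean and SD of 3. For Psmb10 minus Psmb7 the LPS libraries lie at 0.43 to 0.72, above those of the other groups.

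Psma6, an alpha-ring subunit, had 7.12, 7.32 and 7.20 log2 CPM in LPS libraries, against 4.62, 4.91 and 4.95 in untreated libraries. The gap between the groups was far larger than the spread inside either. The difference was 2.39 (SE 0.14, adjusted p = 8.42e-09) and stayed within 2.28 to 2.45 as each library was left out. The other 6 alpha subunits differed by 0.00 to 0.95, and 2 of them, Psma3 and Psma5, were called. With Psma6 included, 42.9% of the alpha subunits rose, against 21.5% of all tested genes.

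Psma3 had 5.32, 5.60 and 5.55 log2 CPM in LPS libraries, against 4.33, 4.55 and 4.73 in untreated libraries, and rose by 0.95 (SE 0.17, adjusted p = 0.000561). Psma5 had 4.46, 5.12 and 5.12 log2 CPM in LPS libraries, against 4.33, 4.49 and 3.92 in untreated libraries, and rose by 0.65 (SE 0.22, adjusted p = 0.0269). LPS library 1 overlapped the untreated range of Psma5. Its call was lost without LPS library 2 (adjusted p = 0.0929), LPS library 3 (adjusted p = 0.104) or untreated library 3 (adjusted p = 0.104). Of the 14 constitutive core genes 7 rose (50.0%) and 1 fell (7.14%), Psmb1, against 21.5% and 25.4% of all tested genes.

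Psmb1, a beta-ring subunit without a cutting site, had 7.11, 7.24 and 7.13 log2 CPM in LPS libraries, against 7.52, 7.51 and 7.38 in untreated libraries. The groups did not overlap, and the difference was -0.31 (SE 0.10, adjusted p = 0.0209). It missed the threshold without LPS library 3 (adjusted p = 0.066), untreated library 1 (adjusted p = 0.061) or untreated library 2 (adjusted p = 0.0731), and under the centring on ribosomal protein genes (adjusted p = 0.196).

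Promoter sequences are shown for 4 genes on which these results turn: Psma6 for its rise, Psmb8 and Psme1 as inducible genes with a match to a searched motif, and Psmb9 as the inducible gene with no called change. They are RefSeq windows on GRCm38.p6, 250 bases before to 50 after an annotated start, in lower case, 5′ to 3′ on the gene's strand. Capitals mark matches to 3 motifs searched on both strands: the interferon-stimulated response element core (2 copies of GAAA with any 2 bases between them), the gamma-activated sequence TTCNNNGAA and the classical NF-kB consensus.
Psma6, chr12:55398575-55398874, plus strand: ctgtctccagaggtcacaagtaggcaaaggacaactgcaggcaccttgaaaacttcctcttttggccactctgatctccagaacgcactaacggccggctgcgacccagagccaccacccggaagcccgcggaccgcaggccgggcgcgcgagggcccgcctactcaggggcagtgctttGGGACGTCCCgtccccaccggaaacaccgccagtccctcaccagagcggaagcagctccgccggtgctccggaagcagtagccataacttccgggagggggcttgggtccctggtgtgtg
Psmb8, chr17:34197945-34198244, plus strand: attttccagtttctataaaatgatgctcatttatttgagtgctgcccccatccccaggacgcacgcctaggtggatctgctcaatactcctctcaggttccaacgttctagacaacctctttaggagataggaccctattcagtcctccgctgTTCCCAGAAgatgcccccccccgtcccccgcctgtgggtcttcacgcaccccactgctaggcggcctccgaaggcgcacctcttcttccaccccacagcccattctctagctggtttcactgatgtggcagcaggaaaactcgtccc
Psme1, chr14:55578244-55578543, plus strand: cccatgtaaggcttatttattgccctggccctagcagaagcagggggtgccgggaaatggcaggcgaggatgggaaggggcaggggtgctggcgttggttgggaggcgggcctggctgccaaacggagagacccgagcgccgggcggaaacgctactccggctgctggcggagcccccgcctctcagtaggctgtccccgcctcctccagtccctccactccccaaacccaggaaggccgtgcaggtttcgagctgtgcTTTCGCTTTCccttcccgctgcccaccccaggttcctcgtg
Psmb9, chr17:34187281-34187580, minus strand: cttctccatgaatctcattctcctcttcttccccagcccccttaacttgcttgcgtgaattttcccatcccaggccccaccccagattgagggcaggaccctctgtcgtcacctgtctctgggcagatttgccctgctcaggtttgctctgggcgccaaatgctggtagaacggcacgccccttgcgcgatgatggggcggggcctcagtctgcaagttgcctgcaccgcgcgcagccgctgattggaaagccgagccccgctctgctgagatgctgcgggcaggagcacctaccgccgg
Counting the start base as 0, the NF-kB match of Psma6 spans -70 to -61, the gamma-activated match of Psmb8 spans -97 to -89, and the response element match of Psme1, on the opposite strand, spans 9 to 18. The Psma6 window belongs to the downstream of 2 RefSeq starts; the upstream window has no match to these 3 motifs. The Psmb9 window has none either, and nor do the windows of Psmb10 and Psme2, which were called higher after LPS. Psmb8, which holds a match, was not called after LPS. Of 40 members with a window, 5 (12.5%) held the response element core, against 3.99% of all 27025 genes with a window. Of these, Psme1 and Psmb3 were called higher after LPS, and Psmd4, Psmd9 and Psmg4 were not called. The gamma-activated sequence was found in 3 members (7.5%, against 9.55%) and the NF-kB consensus in 6 members (15.0%, against 9.55%). Of those with the NF-kB consensus, Psma6, Psmd11 and Psmd12 were called higher after LPS. Psme4 was called lower, and Psma7 and Psmd13 were not called. All motif matches are matches of letters, and binding was not measured.

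Among the 17 base and lid subunits 8 rose (47.1%) and 1 fell (5.88%) after LPS, against 21.5% and 25.4% of all tested genes. Psmd14, the deubiquitinating enzyme of the lid, had 6.25, 5.93 and 5.90 log2 CPM in LPS libraries, against 5.30, 5.16 and 5.41 in untreated libraries, and rose by 0.74 (SE 0.14, adjusted p = 0.000699). Psmd7, its catalytically inactive partner in the lid, had 7.77, 7.55 and 7.74 log2 CPM in LPS libraries, against 7.09, 7.29 and 7.14 in untreated libraries, and rose by 0.51 (SE 0.11, adjusted p = 0.00163). Neither gene's groups overlapped.

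Psmd11, a lid scaffold subunit, had 6.45, 7.23 and 7.16 log2 CPM in LPS libraries, against 6.71, 6.45 and 6.12 in untreated libraries, with an overlap through LPS library 1. Its difference of 0.52 (SE 0.20) passed narrowly, with an adjusted p of 0.0453, and the call was lost in 7 of the 9 fits that left out a library (adjusted p between 0.059 and 0.17 in those 7).

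Psmc3, an ATPase of the base, had 8.94, 8.43 and 8.59 log2 CPM in LPS libraries, against 9.10, 9.15 and 9.004 in untreated libraries. Its difference of -0.43 (SE 0.12) had an adjusted p of 0.0118, which became 0.0531 without LPS library 2 and 0.158 under the centring on ribosomal protein genes. Psmc1, another ATPase of the base, had 9.67, 8.73 and 9.07 log2 CPM in LPS libraries, against 9.47, 9.60 and 9.48 in untreated libraries. The high value of LPS library 1 made the groups overlap, and the difference of -0.36 was not called (adjusted p = 0.12); without that library it was -0.62 (adjusted p = 0.000519).

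Among the chaperones, Psmd10 and Psmd5 rose and the other 5 were not called. That is 28.6% of the chaperones, near the 21.5% of all tested genes that rose. Psmd10, the ankyrin-repeat chaperone gankyrin, had 6.16, 6.58 and 6.43 log2 CPM in LPS libraries, against 4.98, 4.62 and 5.11 in untreated libraries. All LPS libraries lay above all untreated libraries, with a difference of 1.48 (SE 0.16, adjusted p = 4.21e-06). The 4 Psmg chaperones of core assembly had differences of -0.43 to -0.03.

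The 3 remaining regulators moved in different directions. Psme3, which forms the nuclear PA28 gamma cap, had 4.42, 4.95 and 4.86 log2 CPM in LPS libraries, against 3.38, 3.52 and 4.05 in untreated libraries, and rose by 1.10 (SE 0.21, adjusted p = 0.000773). Psme4, the PA200 activator, had 6.20, 6.51 and 6.33 log2 CPM in LPS libraries, against 6.83, 6.77 and 6.51 in untreated libraries. It was called lower by -0.36 (SE 0.13, adjusted p = 0.0371), with LPS library 2 and untreated library 3 touching at about the same level, and the call was lost in 6 of the 9 fits that left out a library (adjusted p between 0.0515 and 0.123 in those 6). Psmf1, the inhibitor PI31, differed by -0.04 (adjusted p = 0.892).

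**Figure D4:**
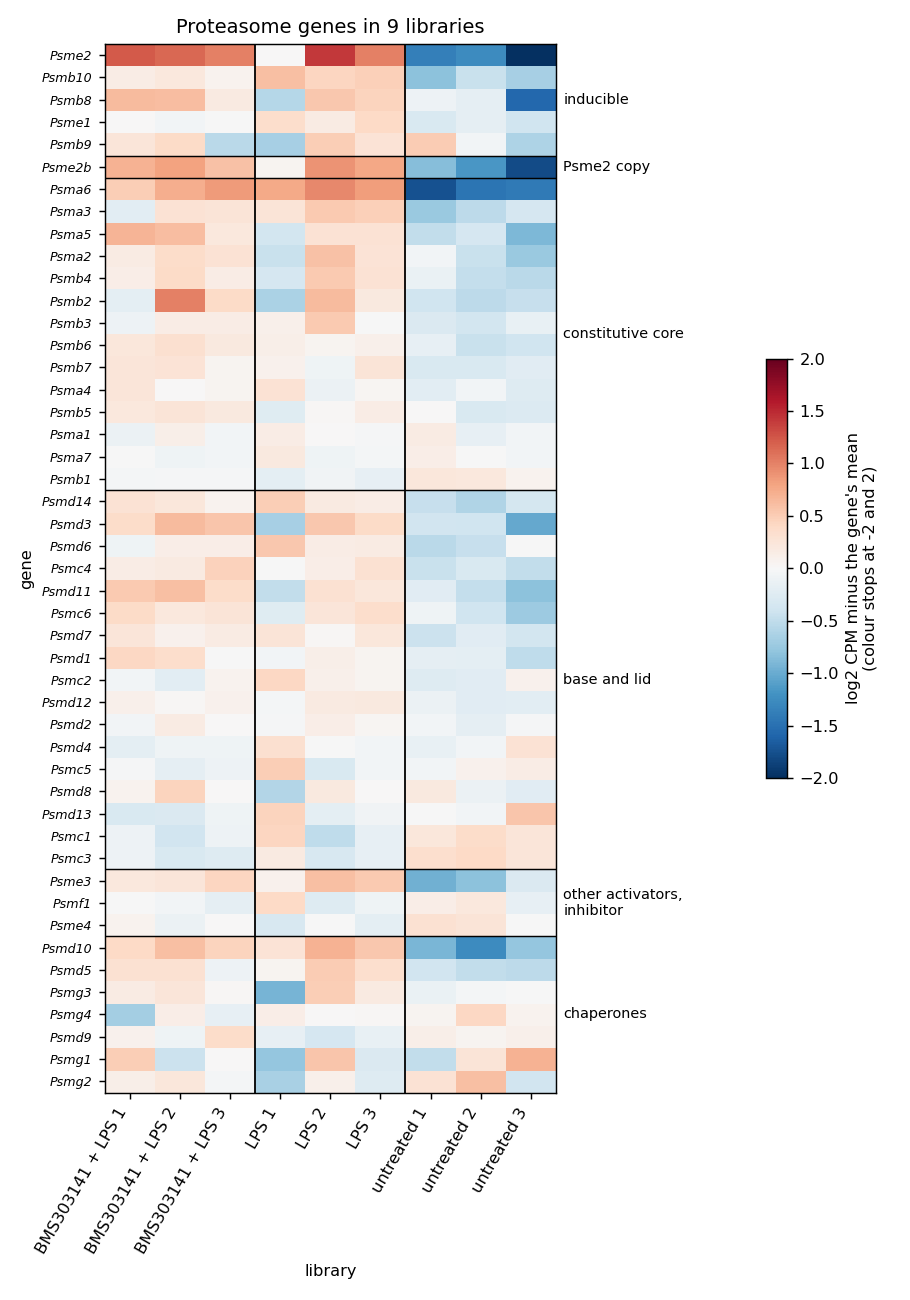
Each of the 47 genes (rows, by role and then by the LPS difference) in each of the 9 libraries (columns). Colour gives log2 CPM minus the gene's mean over the 9 libraries. Psme2, Psme2b, Psma6 and Psmd10 are among the rows that are blue in all 3 untreated columns.

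The second comparison asks what the ATP-citrate lyase inhibitor changed in LPS-treated macrophages. Psmb10 and Psme1 had the most negative differences and Psmd11 the most positive, and none of these passed the test. In limma, 0 of the 47 members rose and 0 fell at an adjusted p under 0.05, against 0.959% of all tested genes that rose and 1.16% that fell. At an unadjusted p under 0.05 there were 3 members (6.38%), against 14.9% of all tested genes. The median difference of BMS303141 plus LPS minus LPS was -0.002 over the members and -0.004 over all tested genes.

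Psmb10 had 6.70, 6.76 and 6.63 log2 CPM in BMS303141 plus LPS libraries, against 7.16, 6.98 and 7.03 in LPS libraries. The groups did not overlap, and the difference was -0.36 (SE 0.12, unadjusted p = 0.0122, adjusted p = 0.184). Psme1 had 5.84, 5.79 and 5.82 log2 CPM in BMS303141 plus LPS libraries, against 6.19, 6.00 and 6.23 in LPS libraries. These groups did not overlap either, and the difference was -0.33 (SE 0.12, unadjusted p = 0.021, adjusted p = 0.24). With weights per library Psme1 was called lower, by -0.37 (adjusted p = 0.0434).

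Psmb8 had 5.76, 5.74 and 5.32 log2 CPM in BMS303141 plus LPS libraries, against 4.56, 5.67 and 5.58 in LPS libraries. The libraries with the inhibitor spanned the values of LPS libraries 2 and 3, and LPS library 1 lay below all of them. The difference was 0.34 with LPS library 1 and -0.02 without it. Psmb9 had 4.42, 4.56 and 3.64 log2 CPM in BMS303141 plus LPS libraries, against 3.51, 4.67 and 4.46 in LPS libraries, and Psme2 had 5.28, 5.20 and 5.07, against 4.07, 5.48 and 5.07. Both genes overlapped between the groups, with differences of -0.0025 for Psmb9 (95% interval -0.75 to 0.74) and 0.31 for Psme2 (95% interval -0.65 to 1.28).

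Among the subunits they replace, Psmb5 had 7.69, 7.73 and 7.67 log2 CPM in BMS303141 plus LPS libraries, against 7.22, 7.49 and 7.62 in LPS libraries, a difference of 0.25 without overlap (adjusted p = 0.375). Psmb7 had 6.59, 6.63 and 6.40 log2 CPM in BMS303141 plus LPS libraries, against 6.44, 6.27 and 6.61 in LPS libraries, a difference of 0.10 with overlap. Inside single libraries, Psmb10 minus Psmb7 was 0.11, 0.14 and 0.24 in BMS303141 plus LPS, against 0.72, 0.71 and 0.43 in LPS. Every library with the inhibitor lay below every library without it, with a change of -0.46 (SE 0.10, exact permutation p = 0.1, adjusted p = 0.3). Psmb8 minus Psmb5 changed by 0.09 and Psmb9 minus Psmb6 by -0.15, both with overlapping groups; without LPS library 1 these were -0.16 and -0.52.

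Psmd11 had 7.46, 7.53 and 7.30 log2 CPM in BMS303141 plus LPS libraries, against 6.45, 7.23 and 7.16 in LPS libraries. The groups did not overlap, and the difference was 0.48 (SE 0.20, unadjusted p = 0.0288, adjusted p = 0.27). LPS library 1 lay well below the other LPS libraries, and without it the difference was 0.23 (adjusted p = 0.575). Psma6 had 6.86, 7.08 and 7.21 log2 CPM in BMS303141 plus LPS libraries, against 7.12, 7.32 and 7.20 in LPS libraries, which overlapped; its difference of -0.16 had a 95% interval of -0.45 to 0.13. Of the 47 members, 5 lay higher without overlap, against 10.1% of all tested genes, and 4 lay lower without overlap, against 11.2%. The 5 were Psmb1, Psmb5, Psmb6, Psmd9 and Psmd11, and the 4 were Psmb10, Psme1, Psmd4 and Psmd6, of which Psmd4, Psmd6 and Psmd9 are named after their values were seen.

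**Figure D5:**
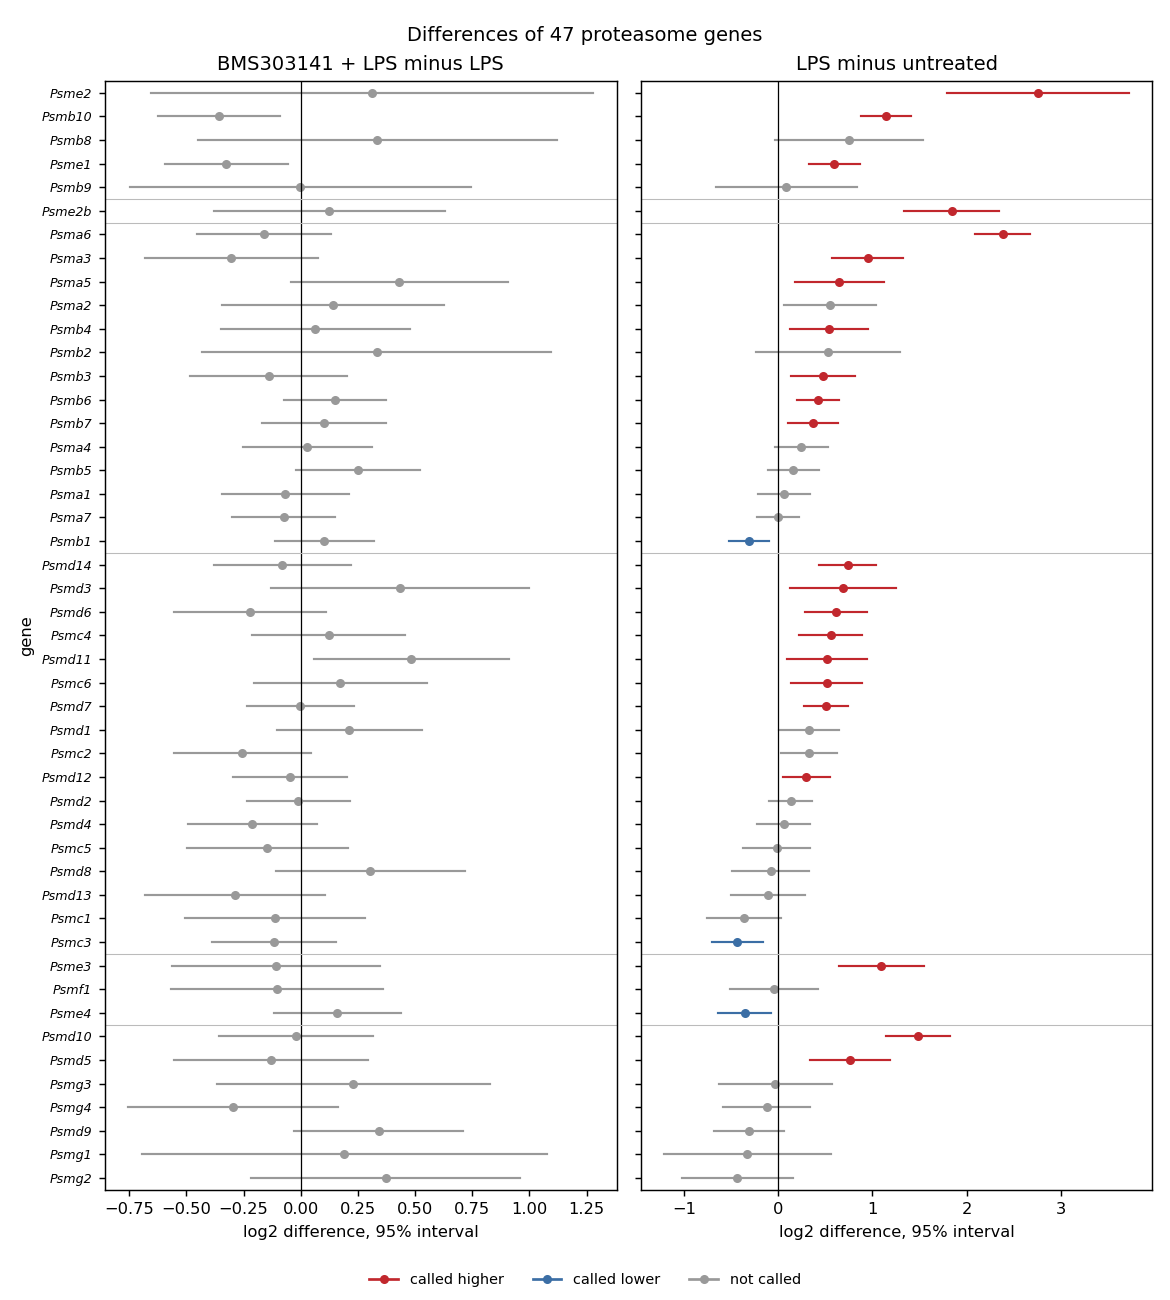
Log2 differences with 95% intervals (x axes, on different scales) for the 47 genes (rows, in the same order in both panels), for BMS303141 plus LPS minus LPS on the left and LPS minus untreated on the right. Red marks genes called higher and blue genes called lower. The right panel holds 22 red and 3 blue genes, and the left panel holds none.

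The third comparison sets macrophages with inhibitor and LPS against untreated ones. It shares its untreated libraries with the first comparison and its BMS303141 plus LPS libraries with the second, so it is not independent of them. Here 22 members rose and 2 fell, against 21.5% and 25.6% of all tested genes. Without overlap 28 lay higher and 4 lower, against 27.2% and 32.2% of all tested genes. The median difference was 0.39 over the members and -0.05 over all tested genes.

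Psmb10 differed by 0.79 (SE 0.12, adjusted p = 0.000153), Psme2 by 3.07 (SE 0.45, adjusted p = 8.84e-05) and Psme2b by 1.97 (SE 0.23, adjusted p = 1.41e-05). Psme1 differed by 0.27 (SE 0.12) and missed the threshold (adjusted p = 0.0876). Psmb8 was called higher, by 1.09 (SE 0.36, adjusted p = 0.0247), with no overlap between the groups. That call was lost without untreated library 3 (0.61, adjusted p = 0.101), without BMS303141 plus LPS library 1 (adjusted p = 0.0795) and without BMS303141 plus LPS library 2 (adjusted p = 0.077). Psmb9 differed by 0.09 (adjusted p = 0.859).

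Of the 14 core subunits 8 rose (57.1%), against 21.5% of all tested genes. Among these core subunits, Psma6 rose by 2.23 (SE 0.14, adjusted p = 1.75e-08) and Psma5 by 1.08 (SE 0.22, adjusted p = 0.00126). Psmb5 rose by 0.41 (SE 0.12, adjusted p = 0.015), a call lost without BMS303141 plus LPS library 2 (adjusted p = 0.0508) and without untreated library 2 (adjusted p = 0.0677). Psmd11 rose by 1.00 (SE 0.20, adjusted p = 0.000989) and Psmd10 by 1.46 (SE 0.16, adjusted p = 5.05e-06). The 2 genes that fell were the ATPase subunits Psmc3, by -0.55 (SE 0.12, adjusted p = 0.00269), and Psmc1, by -0.47 (SE 0.18, adjusted p = 0.047). The call on Psmc1 was lost in 7 of the 9 fits that left out a library (adjusted p between 0.0598 and 0.166 in those 7). Psmb10 minus Psmb7 was 0.11, 0.14 and 0.24 in BMS303141 plus LPS libraries, against -0.31, 0.07 and -0.23 in untreated libraries, a change of 0.32 without overlap (SE 0.12, exact permutation p = 0.1, adjusted p = 0.3).

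The mean of the 5 inducible genes minus the mean of the 14 core genes gives the balance of the 2 groups in each library. It was -0.83, -1.01 and -1.20 in BMS303141 plus LPS libraries, -1.19, -0.82 and -0.83 in LPS libraries, and -1.29, -1.21 and -2.04 in untreated libraries. The change was 0.57 for LPS against untreated, 0.50 for BMS303141 plus LPS against untreated and -0.07 for BMS303141 plus LPS against LPS. Psme2 weighs heavily in the changes against untreated, with differences of 2.76 for LPS and 3.07 for BMS303141 plus LPS, the largest of the 5 genes. The median difference over the 5 inducible genes was 0.76 for LPS and 0.79 for BMS303141 plus LPS against untreated. Over the 14 core genes it was 0.45 and 0.53. The other inducible genes differed by 0.09 (Psmb9) to 1.15 (Psmb10) for LPS against untreated. For BMS303141 plus LPS against untreated they differed by 0.09 (Psmb9) to 1.09 (Psmb8). The core genes ranged over -0.31 to 2.39 and -0.21 to 2.23 in these comparisons. The balance without Psme2 was not calculated, so how far the changes rest on that gene was not tested. Both changes against untreated were without overlap, but narrowly: the lowest BMS303141 plus LPS library (-1.20) and the lowest LPS library (-1.19) lay just above the highest untreated library (-1.21). Without untreated library 3 they were 0.30 for LPS and 0.23 for BMS303141 plus LPS, and without LPS library 1 as well the LPS change was 0.43. With medians of the libraries in place of means, the change was 0.46 for LPS and 0.28 for BMS303141 plus LPS against untreated, and -0.19 for BMS303141 plus LPS against LPS.

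Genes that work with the proteasome were read from a list of 38. After LPS 15 rose and 2 fell, against 21.5% and 25.4% of all tested genes. Zfand5, a proteasome-binding zinc finger protein, had 7.15, 7.45 and 7.39 log2 CPM in LPS libraries, against 6.02, 5.82 and 5.84 in untreated libraries, and rose by 1.44 (SE 0.12, adjusted p = 3.04e-07). Ddi2, the protease that activates Nfe2l1, had 6.23, 5.73 and 5.76 log2 CPM in LPS libraries, against 7.57, 7.86 and 8.04 in untreated libraries, and fell by 1.92 (SE 0.16, adjusted p = 4.13e-07). Nfe2l1, a transcription factor of proteasome genes, rose by 0.79 (SE 0.14, adjusted p = 0.000388). Pomp, the maturation factor of the core particle, differed by -0.14 (adjusted p = 0.667).

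Irf1 and Nlrc5, regulators of MHC class I and immunoproteasome genes, rose after LPS: Irf1 by 2.06 (SE 0.23, adjusted p = 7.49e-06) and Nlrc5 by 1.83 (SE 0.28, adjusted p = 0.00011). In BMS303141 plus LPS against LPS, 1 of the 38 rose and 1 fell, against 0.959% and 1.16% of all tested genes. Tap1 had 6.61, 6.76 and 6.64 log2 CPM in BMS303141 plus LPS libraries, against 7.30, 7.21 and 7.25 in LPS libraries, and fell by 0.59 (SE 0.11, adjusted p = 0.0133). Zfand5 had 7.87, 7.90 and 7.98 log2 CPM in BMS303141 plus LPS libraries, against 7.15, 7.45 and 7.39 in LPS libraries, and rose by 0.58 (SE 0.12, adjusted p = 0.0188). Neither gene's groups overlapped. Irf1 differed by -0.93 (SE 0.23, adjusted p = 0.0545) and Nlrc5 by -0.04 (adjusted p = 0.965). Tap2, on the same list and named after its value was seen, differed by 0.52 (SE 0.22, adjusted p = 0.292), opposite in sign to Tap1. None of Irf1, Nlrc5 and Tap2 was called. Of the 38, 17 rose and 2 fell in BMS303141 plus LPS against untreated, where 21.5% and 25.6% of all tested genes did so, with Zfand5 higher by 2.02 (SE 0.12, adjusted p = 9.51e-09) and Tap1 by 0.48 (SE 0.11, adjusted p = 0.00269).

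Some values rest on genes that overlap others. The 3′ ends of Psmb10, Psmb8, Psme1, Psmb7, Psmc3 and Psma3 lie inside an annotated gene on the opposite strand (Gm16156, Gm20496, Emc9, Nek6, Slc39a13 and 3110056K07Rik). The strand setting of the counting is not given in the sources used here, so reads of the partners cannot be told apart. The partners of Psme1, Psmb7, Psmc3 and Psma3 are among the tested genes, whereas those of Psmb10 and Psmb8 are not. The 3′ ends of Psme2b, Psmd1 and Psmg3 lie inside a gene annotated on the same strand (Gm12185, Gm21972 and Gm26938), where strand does not separate the reads; none of these 3 partners is among the listed genes.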

How the data were processed

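RNA of bone marrow-derived macrophages was sequenced from the 3′ end (QuantSeq forward kit, 100 ng RNA, 16 PCR cycles, per the labels' protocols). Per the submitters' processing notes, the build was GRCm38 (mm10) and the tools were limma, edgeR, MultiQC, featureCounts 1.5.1 and STAR 2.5.2b, with no roles given. Each deposited value is a score in log2 CPM that looks quantile-normalised, as read from the values: linear totals and sorted columns nearly coincide between libraries. Quantile normalisation hides a change that moves most transcripts alike. No counts were used, and no pseudocount was needed.

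Depth was estimated from the steps between low values and is approximate. No molecular identifiers are mentioned, so reads copied by PCR are not independent.

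Testing required 3 libraries with a log2 CPM of 0 or more, which 12196 genes met and 8 did not. All 9 libraries entered 1 limma 3.58.1 model (R 4.3.3, eBayes with mean trend, two-sided), with Benjamini-Hochberg adjustment over all tested genes and calls below an adjusted p of 0.05. Standard errors (SE) are limma's moderated ones. Differences within libraries were tested by exact permutation. The limma fit was tested on simulated counts. These held fewer changed genes than were called here after LPS, and no library stood apart other than by depth. The simulation did not cover the other steps.

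Members, roles, lists and motifs were chosen with earlier results of these data known. 1 gene of the list of genes that work with the proteasome is not reported here. Genes described in full are the 5 inducible genes, Psmb5, Psmb6, Psmb7 and up to 10 called members per direction and comparison by smallest p. Coordinates are from GENCODE M21, promoter windows from RefSeq (GRCm38.p6). The alternatives were a replicate block, filters, normalisations, variance models, a 2-fold minimum and leaving out libraries.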

Additional observations from a re-analysis of the deposited data

How the results depend on the processing

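Repeating the quantile normalisation, dropping the filter, filtering at 10 CPM and centring on medians left the counts of called members within 1.5 times. In LPS against untreated, the count of 22 higher became 14 without a mean trend, against 20.3% of all tested genes. With a 2-fold minimum it became 6 of 47 members, against 12.8% of all tested genes. Leaving out each library gave 15 to 25, some of them outside the 22, against 18.6% to 22.7% of all tested genes. The count of 3 lower became 0 with ribosomal protein centring, without a mean trend or with a 2-fold minimum. Those settings called 19.7%, 24.2% and 14.3% of all tested genes lower. It became 5 with weights per library (the 3 among them), against 31.5%, and 1 with only the 2 groups compared, against 23.7%. Leaving out libraries gave 1 to 4, against 20.8% to 26.9%, with 1 without LPS library 3, untreated library 1 or untreated library 2. In BMS303141 plus LPS against LPS the counts of 0 and 0 became 1 lower with weights per library, against 3.34% of all tested genes. Each left-out library gave 0 to 0, against 0.221% to 1.15% of all tested genes that rose and 0.287% to 1.46% that fell. In BMS303141 plus LPS against untreated 8 of 47 members rose with a 2-fold minimum, against 12.8% of all tested genes. Left-out libraries gave 17 to 24, against 17.6% to 24.2% of all tested genes. The count of 2 lower became 1 with ribosomal protein centring or without a mean trend, 4 with weights, 0 with a 2-fold minimum and 4 without LPS library 1 and untreated library 3 (the 2 among both counts of 4; left-out libraries 1 to 3). The cause of these shifts was not tested.

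Deviations of same-numbered libraries correlated at -0.30 to 0.17, and those of differently numbered libraries at -0.21 to 0.29. With so few libraries per group, these correlations cannot show whether same-numbered libraries share a culture or animal. With a replicate block, 20 members rose and 2 fell in LPS against untreated, where 20.7% and 24.6% of all tested genes did so. In BMS303141 plus LPS against untreated 23 rose and 2 fell, against 20.8% and 24.8%. Against LPS 0 rose and 0 fell, against 0.779% and 0.927%.

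Some uncalled values changed sign. In BMS303141 plus LPS against LPS, with LPS library 1 and untreated library 3 left out, Psmb8 minus Psmb5 became -0.16, Psmb8 -0.0216, Psmc1 0.15, Psmc3 0.0258, Psmd14 0.031, Psmd7 0.0389, Psme2 -0.0872 and Psme2b -0.14; with weights, Psmc1 became 0.0016, Psmd14 0.0185 and Psme2b -0.0478. Leaving out each library there gave -0.0216 to 0.54 for Psmb8, -0.35 to 0.28 for Psmb9, -0.33 to 0.15 for Psmc1, -0.23 to 0.0258 for Psmc3, -0.14 to 0.0733 for Psmd10, -0.14 to 0.031 for Psmd14, -0.0719 to 0.0389 for Psmd7, -0.0872 to 0.62 for Psme2 and -0.14 to 0.29 for Psme2b. The within-library differences ranged over -0.16 to 0.26 (Psmb8 minus Psmb5), -0.52 to 0.10 (Psmb9 minus Psmb6) and -0.19 to 0.0243 (inducible minus core). In LPS against untreated Psmb9 ranged over -0.20 to 0.44 and Psmb9 minus Psmb6 over -0.59 to 0.0242. In BMS303141 plus LPS against untreated Psmb9 ranged over -0.20 to 0.37, with -0.20 also when both libraries were left out.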

Other observations

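The neighbourhood of Psma6 on GRCm38 chromosome 12 was looked at after its values were seen. Nfkbia, the gene of an NF-kB inhibitor, lies 70956 bases from Psma6 (55489410 to 55492647) and rose by 3.17 after LPS (adjusted p = 1.33e-08). 1700047I17Rik2, 167054 bases away on the other side, rose by 3.21 (adjusted p = 4.44e-10), Srp54c by 0.88 (adjusted p = 0.000139) and Srp54b by 0.73 (adjusted p = 0.013). Between them and Psma6, 1110008L16Rik differed by -0.49 (adjusted p = 0.446) and Ppp2r3c by -0.33 (adjusted p = 0.18). Beyond Nfkbia, Ralgapa1 differed by -0.18 (adjusted p = 0.452). In BMS303141 plus LPS against LPS none of these neighbours was called. These values are a description, and whether they bear on Psma6 was not tested.

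The antioxidant response element core TGANNNNGC, searched on both strands, occurred in the windows of 22 of 40 members (55.0%) and of 45.0% of all genes with a window. Replicates of the members were closer than those of most genes: the median SD over the members was 0.12 in BMS303141 plus LPS, 0.22 in LPS and 0.19 in untreated libraries, against 0.20, 0.29 and 0.24 in those groups over all tested genes. The members are more abundant, with a median log2 CPM of 6.36 against 3.81, and this was not separated from the spread.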
